A study of Mus musculus with 7 samples.

Results

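The mouse mitochondrial genome carries 37 genes, and all of them were found among the 55414 genes of the count table. They were taken as every gene whose GENCODE M21 symbol begins with mt-, which gave 13 genes for messenger RNAs (mRNAs), 2 for ribosomal RNAs (rRNAs) and 22 for transfer RNAs (tRNAs). Polyadenylated RNA had been sequenced from spleens in 2 groups. The wild-type group (WT, n = 3) is labelled as genotype C57BL/6N, and the other group (Fpr2KO, n = 4) carries a deletion of the receptor gene Fpr2. For neither group do the sources used here give age, sex or any treatment, nor the background strain of the Fpr2KO mice. Nothing in the labels says that the numbered replicates were different mice. The p-values therefore cover only the spread among the 7 libraries, and part or all of that may be technical.

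Mitochondria keep a small circular genome of their own. Its mRNAs encode core subunits of respiratory complexes I, III and IV and of the ATP synthase (complex V), while its rRNAs and tRNAs serve the ribosomes that translate them inside the organelle. The other subunits of these complexes come from nuclear genes. Translation in mitochondria, as in bacteria, begins with formylated methionine, and peptides released from damaged mitochondria are ligands of formyl peptide receptors such as Fpr2. Both strands of the mitochondrial genome are transcribed into long precursors, tRNAs are cut out between the other genes, and most of the mRNAs then receive a short poly(A) tail.

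The starts of the mRNAs are shown because the first codon is where the formylated methionine enters. Sequences are those of GENCODE M21 (GRCm38), written 5′ to 3′ with the first codon in capitals. All genes but mt-Nd1, mt-Nd2, mt-Nd3 and mt-Nd5 begin with ATG, as mt-Co1 does.
mt-Nd1: GTGttctttattaatatccta
mt-Nd2: ATAaatcctatcacccttgcc
mt-Nd3: ATTaacctgtacactgttatc
mt-Nd5: ATCaatattttcacaacctca
mt-Co1: ATGttcattaatcgttgatta

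The ends of 3 mRNAs are shown for their incomplete stop codons. In the annotation mt-Co3, mt-Nd4 and mt-Cytb stop at a lone T, in capitals below, and in mitochondria the poly(A) tail is known to complete such a stop codon.
mt-Co3: ccatttattgatgaggatctT
mt-Nd4: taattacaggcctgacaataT
mt-Cytb: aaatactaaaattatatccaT

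A stretch of chromosome 1 repeats part of the mitochondrial genome and bears on how these genes could be counted. The annotation places 7 pseudogenes side by side on its minus strand, from 24611535 to 24616197 (GRCm38), in the order of their mitochondrial counterparts. Over the aligned bases Gm10925 was identical to mt-Atp6 (678 bases), Gm28661 to mt-Co2 (681), Gm28437 to mt-Co3 (783), Gm28439 to the first 876 bases of mt-Nd4 and Gm10222 to mt-Nd4l (294). Gm28438 differed from mt-Nd3 at a single base over 345 bases, T3C, counted from the first base of the gene with the mitochondrial base first. All these comparisons are between reference sequences. Whether the mice used here carry the same bases, in the gene or its copy, was not examined. Gm29216 differed from the end of mt-Co1 at 6 of 492 bases, all between positions 1056 and 1066 of mt-Co1. The first bases of mt-Nd3 and its copy are shown with the differing base in capitals, and those of mt-Atp6 and its copy with the first codon in capitals.
mt-Nd3: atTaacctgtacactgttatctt
Gm28438: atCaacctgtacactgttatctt
mt-Atp6: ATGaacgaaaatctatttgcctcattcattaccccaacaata
Gm10925: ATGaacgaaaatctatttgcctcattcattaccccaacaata

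The share of each gene that could not be told from another transcript was measured as the percentage of its 50-base words found in any other annotated transcript, on either strand. It was 100% for mt-Co2, 99.9% for mt-Co3, 99.5% for mt-Atp6, 98.8% for mt-Nd4l and 98.0% for mt-Nd3. For mt-Nd4 it was 62.2% and for mt-Co1 51.1%, the latter from Gm29216 and from a second copy on chromosome 2, Gm13340. The other mRNAs had at most 8.19%. No transcript is annotated opposite mt-Atp8, but the 233 bases between Gm10925 and Gm28661 are as long as the mitochondrial interval between the matching parts of mt-Co2 and mt-Atp6, in which most of mt-Atp8 lies. The sources used here give neither the read length nor how reads with several equal alignments were treated. The counts of these genes are therefore uncertain as measures of their RNA.

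Library totals ran from 14968605 to 18692809 counts, and Fpr2 itself had 477 to 537 reads in the WT libraries and 0 in every Fpr2KO library, which allows up to 3 reads in each. Haemoglobin genes took from 1.39% to 7.95% of the counts in WT and from 1.01% to 4.65% in Fpr2KO. A list of 16 acinar genes of the pancreas summed to 1019 CPM (counts adjusted for library size by edgeR's TMM factors) in Fpr2KO replicate 1 and 567 in replicate 2, against at most 49.1 in the other libraries. Markers of erythroid cells, B cells, T cells, neutrophils and red pulp macrophages, the defining cells of the spleen, were present in all libraries. In bulk RNA, fewer cells of a type and less RNA per cell cannot be told apart.

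Together the 37 genes took shares of the counts that overlapped between the groups. They took 2.95%, 3.55% and 3.59% of all counts in the WT libraries and 3.19%, 3.08%, 3.16% and 3.15% in the Fpr2KO libraries. WT replicate 1 was the lowest of all libraries and the other 2 WT libraries were the highest, so the groups overlapped. These shares use library totals without edgeR's TMM factors, which ran from 0.922 to 0.998 in WT and from 0.990 to 1.06 in Fpr2KO. The means were 3.36 ± 0.360% in WT (SD, n = 3) and 3.14 ± 0.0478% in Fpr2KO (SD, n = 4), a log2 ratio of -0.10. This ratio rested on single libraries, being -0.18 without WT replicate 1, -0.06 without WT replicate 2 and -0.05 without WT replicate 3. Counting error was far smaller than these differences (exact binomial 95% interval 2.94% to 2.96% in WT replicate 1).

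**Figure D1:**
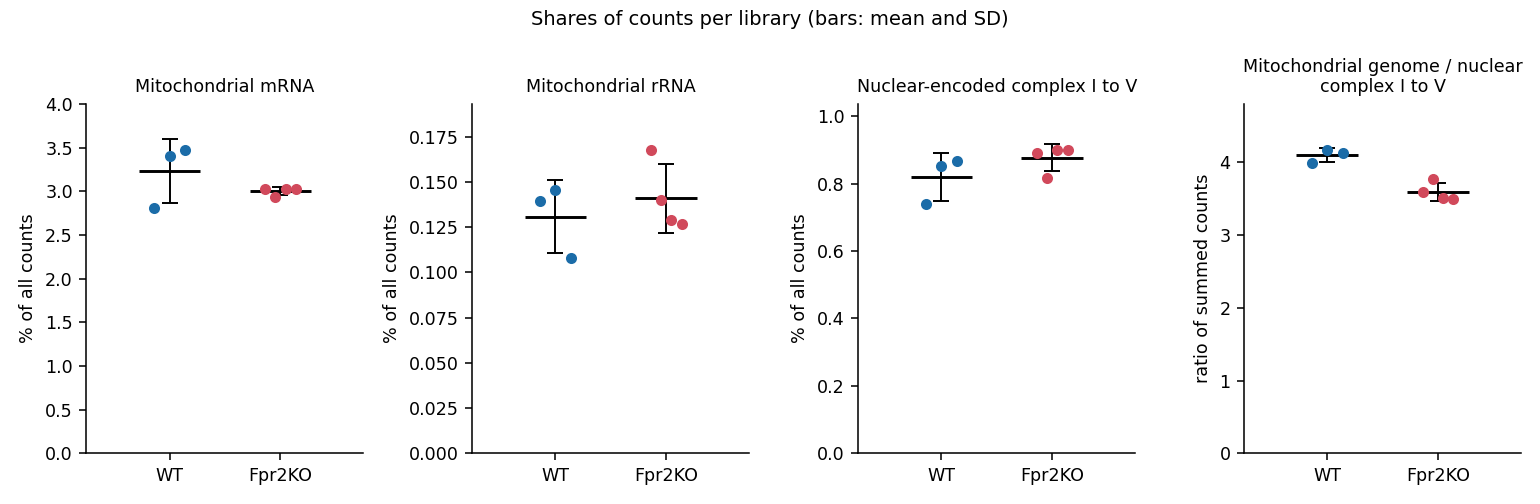
Counts of mitochondrial mRNAs, mitochondrial rRNAs and nuclear-encoded genes of complexes I to V as a percentage of all counts, and the ratio of mitochondrially encoded counts to the last of these, per library (points), with mean and SD (bars) for WT (n = 3) and Fpr2KO (n = 4). The first 3 measures overlap between the groups, while the ratio lies between 3.99 and 4.17 in WT and between 3.50 and 3.76 in Fpr2KO.

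The mRNAs made up most of these counts. They took 2.81%, 3.41% and 3.48% of all counts in WT and between 2.94% and 3.03% in Fpr2KO. The rRNAs took 0.140%, 0.145% and 0.108% in WT and between 0.127% and 0.168% in Fpr2KO. These libraries were made from polyadenylated RNA, so the rRNA share is not that of total RNA. The tRNAs had 432 reads in all 7 libraries together.

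Levels per gene length fell into a high and a low class of mRNAs, and most of the low ones lay opposite the repeated stretch. Per kilobase, mt-Co1, the catalytic subunit of complex IV, was the highest of all at 10350 CPM per kb in WT, followed by mt-Cytb of complex III (5419) and the complex I genes mt-Nd1 (3489), mt-Nd2 (2131), mt-Nd5 (1797) and mt-Nd4 (1787). In Fpr2KO the order was the same, from 8932 for mt-Co1 to 1596 for mt-Nd4. The ranges of mt-Nd4 and mt-Nd5 overlapped in both groups, and the order of these neighbours was not tested within libraries. Full gene length was used, although 62.2% of the words of mt-Nd4 and 51.1% of those of mt-Co1 were shared. The levels of both genes, and the place of mt-Nd4 in this order, are therefore uncertain as measures of RNA. The rRNA genes followed, with 578 CPM per kb for mt-Rnr2 and 466 for mt-Rnr1 in WT. The 6 abundant mRNAs, from mt-Co1 to mt-Nd4 in this order, held 95.5% of all mitochondrial counts.

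The 5 mRNAs with at least 95% of their words shared were far below. In WT they ran from 2.01 CPM per kb for mt-Nd4l to 31.2 for mt-Co2, a second core subunit of complex IV. By full gene length, the level of mt-Co1 was 332 times that of mt-Co2, although both encode subunits of the same complex. The lowest of the 6 abundant mRNAs, mt-Nd4, stood 57.4 times above mt-Co2. In single libraries the counts of these 5 genes lay between 5 and 397, against 30886 or more for each of the 6 others. The chromosome 1 copies of these low genes were low as well, some near the level of the gene they match and some well above it. In WT, Gm28661 had 29.2 CPM per kb, Gm10925 had 44.7 and Gm28437 had 25.4, against 31.2 for mt-Co2, 20.6 for mt-Atp6 and 25.6 for mt-Co3. Gm28438 had 23.7 against 5.76 for mt-Nd3, and Gm10222 had 1.90 against 2.01 for mt-Nd4l. The copies of the abundant genes were far below them, Gm29216 with 36.4 CPM per kb against 10350 for mt-Co1 and Gm28439 with 5.96 against 1787 for mt-Nd4.

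Apart from these, 2 mRNAs were low. The gene mt-Atp8, a small ATP synthase subunit that overlaps mt-Atp6 by 43 bases, had 5.78 CPM per kb in WT and 4.80 in Fpr2KO. The complex I gene mt-Nd6 is the only mRNA gene on the minus strand and shared no 50-base word. It had 46.3 CPM per kb in WT and 48.3 in Fpr2KO, and 272 to 525 reads per library. The strand setting of the counting is not given in the sources used here, so reads of mt-Nd6 and of plus-strand precursors across it cannot be told apart.

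**Figure D2:**
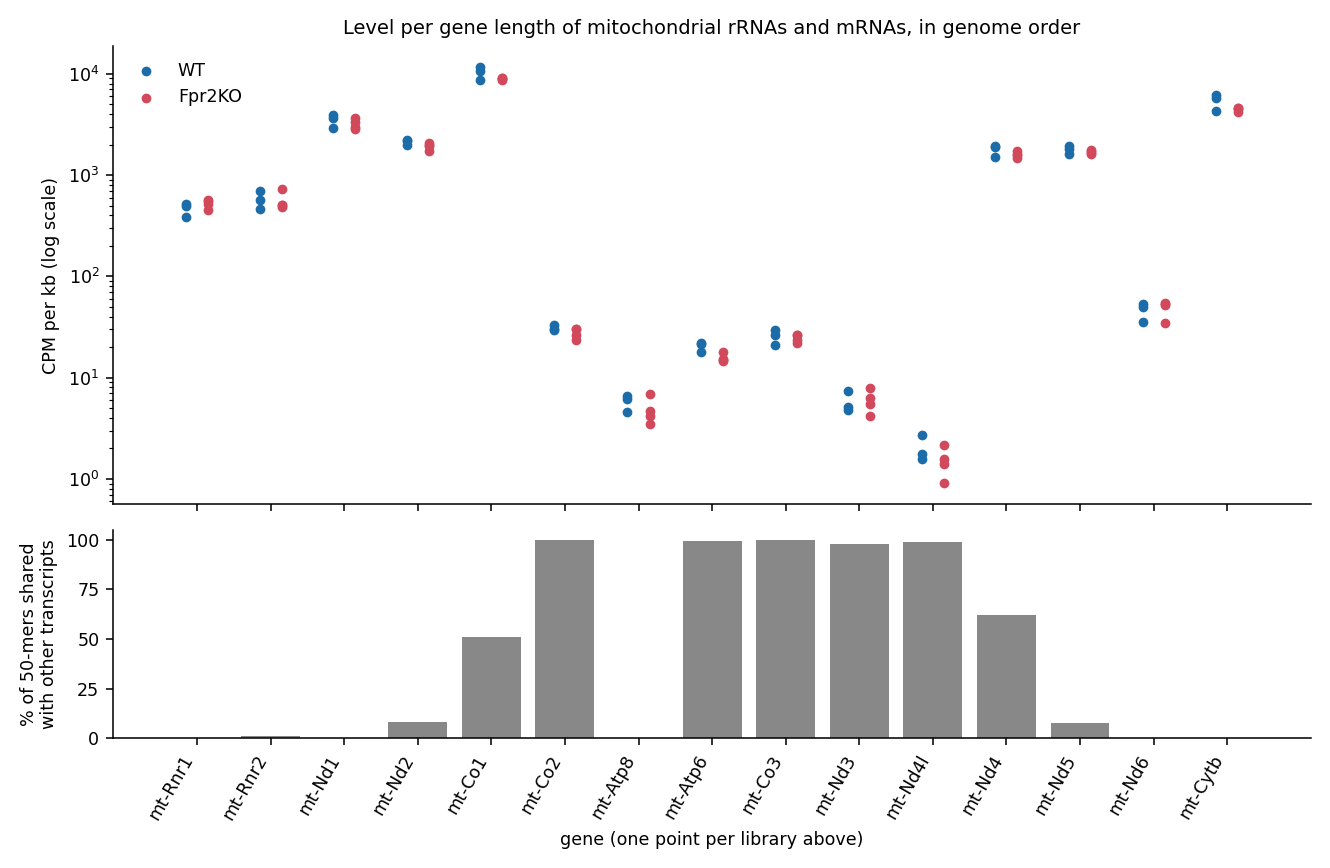
Level of each mitochondrial rRNA and mRNA in CPM per kilobase of gene (log scale, one point per library, genes in genome order) above the percentage of its 50-base words found in other annotated transcripts. The 5 genes from mt-Co2 to mt-Nd4l with almost all words shared, and mt-Atp8 among them, have WT means from 2.01 to 31.2 CPM per kb, while those of mt-Nd1, mt-Nd2, mt-Co1, mt-Nd4, mt-Nd5 and mt-Cytb run from 1787 to 10350.

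No mitochondrially encoded gene passed the test between Fpr2KO and WT. After the filter on low counts 16 of the 37 members were tested, of which 12 were mRNAs, 2 rRNAs and 2 tRNAs. None of the 16 had an adjusted p under 0.05 in edgeR's quasi-likelihood test with Benjamini-Hochberg adjustment over all genes, against 0.0373% of all 16089 tested genes, and DESeq2 and limma-voom also called 0 of them. A single member, mt-Atp6, had an unadjusted p under 0.05, where 4.98% of all genes did. The fitted level was lower in Fpr2KO for 10 of the 12 mRNAs, with a median log2 fold change (Fpr2KO minus WT) of -0.16, against 51.4% lower and a median of -0.0049 over all tested genes. The median was -0.24 without WT replicate 1 and -0.07 when libraries were scaled by their totals alone.

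Among genes of complex IV, mt-Co1 had 13328, 18103 and 16543 CPM in WT and 14046, 13351, 14118 and 13688 in Fpr2KO. The Fpr2KO libraries lay close together, between WT replicate 1 and the other 2 WT libraries. Its log2 fold change was -0.21 (SE 0.10, edgeR adjusted p = 1.0), and leaving out WT replicate 1 gave -0.33 and leaving out WT replicate 2 gave -0.11. Counts assigned to mt-Co2 gave 20.4, 22.9 and 20.7 CPM in WT and between 15.99 and 20.7 in Fpr2KO. Those of mt-Co3, another core subunit, gave 16.4, 23.3 and 20.6 CPM in WT and between 17.1 and 20.5 in Fpr2KO. The log2 fold changes of mt-Co2 and mt-Co3, -0.18 and -0.07, did not pass the test.

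In complex III the only member is mt-Cytb, which encodes cytochrome b. It had 4895, 6593 and 7112 CPM in WT and 5309, 4754, 5193 and 5302 CPM in Fpr2KO. WT replicate 1 lay among the Fpr2KO libraries, and both other WT libraries lay above them all. The log2 fold change was -0.27 (SE 0.12, edgeR adjusted p = 1.0).

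Complex I has 7 members, the membrane-bound subunits of the enzyme that takes electrons from NADH. The 4 abundant ones all had lower fitted levels in Fpr2KO and overlapped between the groups. Values for mt-Nd2 were 2070, 2264 and 2302 CPM in WT and 2136, 1782, 1989 and 2038 in Fpr2KO. For mt-Nd1 they were 2779, 3756 and 3482 CPM in WT and 2741 to 3466 in Fpr2KO. Libraries of WT held 2076, 2614 and 2697 CPM of mt-Nd4, and those of Fpr2KO from 2029 to 2372. In each of the 3 genes at least 1 WT library lay among the Fpr2KO libraries. Values for mt-Nd5 were 2945, 3565 and 3326 CPM in WT and 2951 to 3191 in Fpr2KO, with WT replicate 1 lowest of all. Log2 fold changes were -0.16 for mt-Nd2, -0.13 for mt-Nd1, -0.16 for mt-Nd4 and -0.09 for mt-Nd5. The remaining genes had small positive values, 0.06 for both mt-Nd3 and mt-Nd6, and mt-Nd4l, with 60 reads in all libraries together, was not tested.

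The most negative fitted value among the mRNAs was that of mt-Atp6, 1 of the 2 ATP synthase genes. Reads assigned to mt-Atp6, which encodes the subunit of the proton channel, came to 12.3, 15.1 and 14.7 CPM in WT and to 9.95, 10.4, 10.2 and 12.2 in Fpr2KO. Each Fpr2KO library was below each WT library, although WT replicate 1 and Fpr2KO replicate 4 nearly met. This was the only tested member whose groups did not overlap in CPM, against 3.18% of tested genes lower and 2.73% higher without overlap. Its log2 fold change was -0.40 (SE 0.13, edgeR adjusted p = 0.872; 95% interval -0.69 to -0.10). For mt-Atp8, with 12 to 27 reads per library, it was -0.26 (SE 0.33).

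The fitted values of the rRNA genes had opposite signs. The small-subunit rRNA mt-Rnr1 had 494, 473 and 369 CPM in WT and 546, 531, 491 and 428 in Fpr2KO, with the groups overlapping and a fitted log2 difference of 0.16 (SE 0.12, edgeR adjusted p = 1.0). The large-subunit rRNA mt-Rnr2 had 905, 1106 and 733 CPM in WT and 1154, 795, 762 and 808 in Fpr2KO, and its log2 fold change of -0.06 turned to 0.10 without WT replicate 2. As a part of all mitochondrial counts, the rRNAs were at 4.73%, 4.09% and 3.00% in WT and between 4.03% and 5.26% in Fpr2KO. WT replicate 3 was below every other library and the rest were mixed.

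Of the 22 tRNA genes 13 had no read in any library. Reads fell on 6 of the 8 tRNA genes of the minus strand and on 3 of the 14 of the plus strand. The tryptophan tRNA mt-Tw had 194 reads in all and the proline tRNA mt-Tp 102, and the others at most 45. Among those not tested, the serine tRNA mt-Ts1 had 5, 10 and 11 reads in WT and 3, 5, 3 and 3 in Fpr2KO. Its reads met at 5, and only after scaling by library size did its CPM not overlap between the groups. The same held for mt-Te, with 1, 1 and 2 reads in WT and 0, 1, 0 and 1 in Fpr2KO. How often this occurs among untested genes was not counted, so neither is read as a difference. Both mt-Tw and mt-Tp were tested. For mt-Tw the log2 fold change was 0.07 (SE 0.29), and for mt-Tp, at 1.85 CPM in WT replicate 3 and 0.54 to 0.89 in the other libraries, it was -0.44 (SE 0.45).

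**Figure D3:**
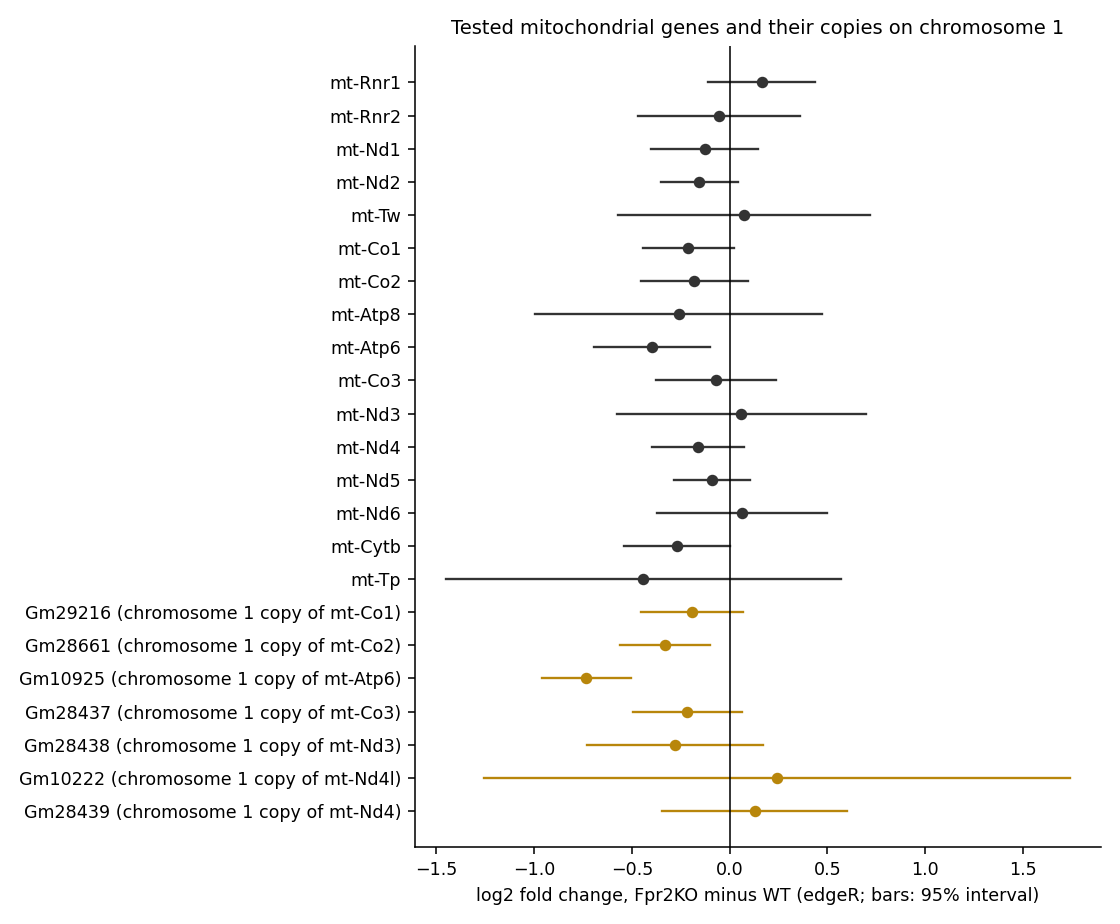
Log2 fold changes (Fpr2KO minus WT) from edgeR with 95% intervals for the 16 tested mitochondrially encoded genes in genome order (dark) and the 7 chromosome 1 copies (gold). Among the dark intervals that of mt-Atp6 alone leaves out 0, and among the gold ones those of Gm10925 and Gm28661 do. None of these genes had an edgeR adjusted p under 0.05.

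The mitochondrial mRNAs varied together between the WT libraries. WT replicate 1 was the lowest WT library for 12 of the 12 tested mRNAs. The nuclear-encoded genes of complexes I to V behaved alike, with 0.739% of all counts in WT replicate 1, 0.851% and 0.868% in WT replicates 2 and 3, and between 0.818% and 0.901% in Fpr2KO. Such joint variation could be set aside by taking mitochondrially encoded counts relative to those of the nuclear-encoded subunits with which their products assemble.

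On that scale the groups separated. Mitochondrially encoded counts were 3.99, 4.17 and 4.13 times those of the nuclear-encoded complex I to V genes in WT and 3.58, 3.76, 3.50 and 3.50 times in Fpr2KO, or 4.10 ± 0.0960 (SD, n = 3) against 3.59 ± 0.124 (SD, n = 4). Every Fpr2KO library was below every WT library. Taken singly in the same way, mt-Co1, mt-Cytb, mt-Nd2, mt-Nd4 and mt-Atp6 did not overlap and were lower in Fpr2KO, 5 of the 16 tested members, where 2.28% of all tested genes did so. These 5 are parts of shared precursors and are not independent of each other. In WT replicate 1 they were also low together with the reference, which genes in general need not be. The share over all tested genes is therefore not a like background for them. For mt-Co1 the values were 180, 196 and 187 counts per 100 counts of the nuclear genes in WT and 156, 172, 161 and 156 in Fpr2KO. For mt-Cytb they were 66.1, 71.3 and 80.2 in WT and 58.9, 61.4, 59.2 and 60.4 in Fpr2KO. The separation held also against the 78 genes of mitochondrial ribosomal proteins, a reference added after the values were seen, with ratios of 12.8, 14.3 and 13.4 in WT and 11.6, 11.9, 11.1 and 11.6 in Fpr2KO. These ratios, summed or single, were not tested, since the members and the reference lists were chosen with earlier results of these data known. The complex I to V reference itself had a mean of 0.819% of all counts in WT and 0.878% in Fpr2KO, so both parts of that ratio contributed. Against broader references the groups overlapped. Mitochondrial counts were 3.16% to 3.97% in WT and 3.24% to 3.42% in Fpr2KO of counts without haemoglobin and immunoglobulin genes. Of counts of genes on nuclear chromosomes they were 3.04% to 3.73% and 3.18% to 3.30%.

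The nuclear genes that serve mitochondria had fitted changes near 0. Of 229 tested genes in the lists of nuclear-encoded mitochondrial genes, 0 were called by edgeR, DESeq2 or limma-voom, and 2 had an unadjusted p under 0.05, a smaller share than the 4.98% of all tested genes. They had higher fitted levels in 154 cases and lower ones in 75, with a median log2 fold change of 0.03. Thus 32.8% were lower, against 51.4% of all tested genes. Without overlap 5 were higher in Fpr2KO and 3 lower, in each direction a smaller share than over all tested genes (2.73% higher and 3.18% lower).

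By complex, the median log2 fold change was 0.02 for the 37 genes of complex I, -0.02 for the 4 of complex II, which has no mitochondrially encoded subunit, 0.01 for the 10 of complex III with cytochrome c, 0.04 for the 14 tested of complex IV and 0.01 for the 16 tested of complex V. The members with the smallest p in these lists did not pass. In complex I they included Ndufb1-ps (log2 fold change 0.27, SE 0.15) and Ndufb3 (0.16, SE 0.11). Cycs, which encodes the electron carrier cytochrome c, was at 0.17 (SE 0.11), the complex IV gene Cox7c at 0.18 (SE 0.12) and the ATP synthase gene Atp5k at 0.19 (SE 0.16). In complex II, Sdhd was at 0.04 and Sdha at -0.02.

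Genes for the upkeep and reading of the mitochondrial genome were also near 0. The median was 0.06 for 20 genes of mitochondrial DNA replication and transcription, among them Top1mt, a mitochondrial topoisomerase (0.20), and Polg, the replicative polymerase (-0.10). For 22 genes of RNA processing and stability it was 0.02, with Pnpt1, a mitochondrial exoribonuclease, at 0.16 and Trmt10c, a subunit of mitochondrial RNase P, at 0.11. Among 78 mitochondrial ribosomal proteins the median was 0.05, with 55 higher and 23 lower. The smallest p there belonged to Mrpl32, at 27.6 ± 1.56 CPM in WT (SD, n = 3) and 32.9 ± 1.10 in Fpr2KO (SD, n = 4), giving 0.25 on the log2 scale (SE 0.09, edgeR adjusted p = 0.884). For 15 translation factors the median was 0.04, with the release factor genes Mtrf1 at 0.39 (SE 0.19) and Mtrf1l at 0.20 (SE 0.12). Regulators of mitochondrial biogenesis had a median of 0.02 over 9 genes, and Myc among them had 62.6 ± 3.85 CPM in WT and 53.8 ± 2.49 in Fpr2KO (log2 fold change -0.22, SE 0.08, edgeR adjusted p = 0.916).

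The enzymes that add and remove the formylated methionine were measured in all libraries and did not pass the test. Mtfmt, which formylates the initiator methionine, had 15.7 ± 2.86 CPM in WT (SD, n = 3) and 15.5 ± 1.46 in Fpr2KO (SD, n = 4). Mars2, which charges the mitochondrial methionine tRNA, had 22.6 ± 4.04 and 24.2 ± 3.20 CPM. Pdf, the deformylase that takes the formyl group off, was low at 1.05 ± 0.159 and 1.08 ± 0.316 CPM, and Metap1d, which then removes the methionine, had 21.9 ± 4.50 and 21.7 ± 1.54 CPM. Each of these differences was smaller than the spread between libraries. The methionine tRNA mt-Tm itself had 0 reads.

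The chromosome 1 copy of mt-Atp6 had a larger fitted difference than any tested mitochondrial gene. Gm10925 (chromosome 1, 24613974 to 24614651, minus strand) had 29.9, 28.4 and 32.7 CPM in WT and 20.02, 18.2, 17.0 and 17.8 in Fpr2KO, so that the lowest WT library was well above the highest Fpr2KO library. The log2 fold change was -0.73 (SE 0.10). In edgeR its adjusted p was 0.0752, above the threshold, while DESeq2, which called 0.354% of all genes, called it (adjusted p = 2.69e-05), as did limma-voom (adjusted p = 0.0382) and edgeR without a filter on low counts (adjusted p = 0.00265). Over all alternatives the fold change stayed between -0.80 and -0.65 and the adjusted p ran from 2.69e-05 to 1.0. The neighbouring copy Gm28661 had 18.97, 20.9 and 19.8 CPM in WT and 16.5, 14.5, 16.1 and 16.1 in Fpr2KO, also without overlap (-0.33, SE 0.10, edgeR adjusted p = 0.771). Other copies in the stretch overlapped between the groups, from -0.28 for Gm28438 to 0.24 for Gm10222, which had 1 to 21 reads per library. Since mt-Atp6 and Gm10925 are identical over 678 bases, reads of either gene could have been assigned to the other. With the counts of both added together, the log2 fold change was -0.62 (edgeR adjusted p = 0.0742), the adjusted p of mt-Atp6 over all alternatives lying between this value and 1.0.

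**Figure D4:**
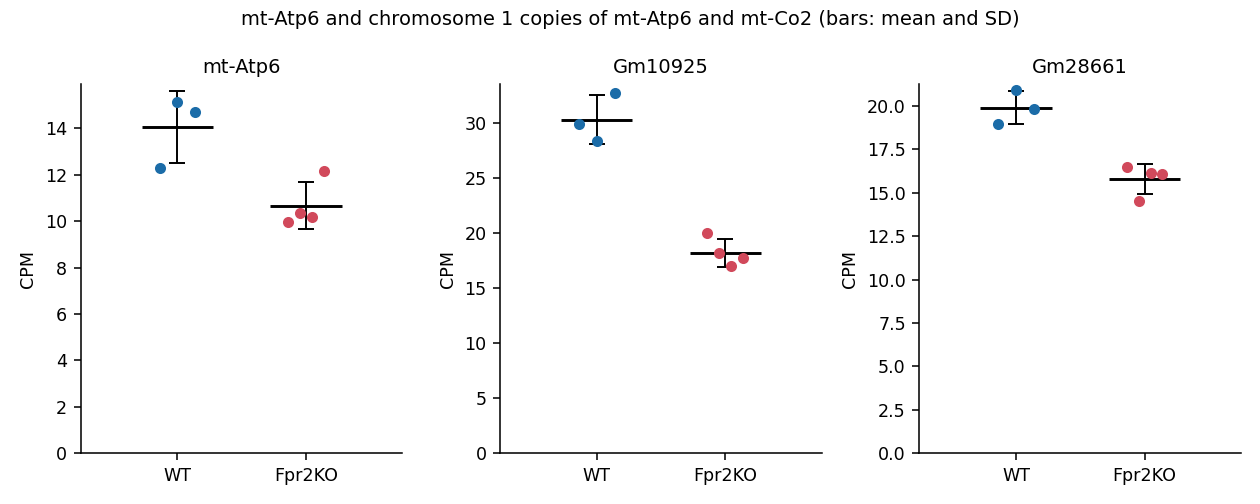
CPM per library (points) with mean and SD (bars) for mt-Atp6 and for the chromosome 1 copies Gm10925 (of mt-Atp6) and Gm28661 (of mt-Co2), in WT (n = 3) and Fpr2KO (n = 4). For all 3 genes the highest Fpr2KO point lies under the lowest WT point, and the gap between the groups is widest for Gm10925.

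Markers of other cell types also differed between the libraries. The 15 neutrophil markers summed to between 4122 and 5309 CPM in WT and between 1609 and 3228 in Fpr2KO, and these sums did not overlap. All 15 had lower fitted levels. Taken singly, 5 were lower without overlap, where 3.18% of all tested genes were. By edgeR 0 were called, against 0.0373% of all genes, and by DESeq2 5, against 0.354%. Erythroid markers, 14 of 15 lower, ranged from 15363 to 94606 CPM in WT and from 10336 to 54622 in Fpr2KO. The 10 plasma cell markers, all with lower fitted levels, ran from 2728 to 6112 CPM in WT and from 2260 to 4219 in Fpr2KO. The 12 cell cycle genes, also all lower, ran from 903 to 1766 and from 683 to 1996. Megakaryocyte and platelet markers, 10 of 10 lower, ran from 540 to 1031 and from 530 to 953. Stress-response RNAs of tissue handling were lower in 9 of 10. Of 10 markers each, 8 of T cells, 6 of red pulp macrophages and 4 of B cells had higher fitted levels. With the haemoglobin level as a covariate, chosen after seeing the data, the median of the mitochondrial mRNAs was -0.11 and the fitted value of mt-Rnr2 turned to 0.14. Without Fpr2KO replicates 1 and 2, the libraries with acinar transcripts, the mRNA median was -0.13. The part of neutrophils, plasma cells, dividing cells, platelets and tissue handling in the mitochondrial values was not tested.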

How the data were processed

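The authors deposited raw read counts per Ensembl gene in 1 table with a column for each of 7 samples (3 WT, 4 Fpr2KO). Libraries of polyadenylated RNA were made with a NEBNext Ultra II kit, per the labels' protocols, and the submitters' processing notes list FastQC 0.10.1, HTSeq 0.10.0 and the build mm10 (GRCm38). The aligner, annotation release and strand setting are not given in the sources used here. Reads from overlapping genes on opposite strands may therefore be mixed. Symbols and positions came from GENCODE M21, which matched 52081 of 55414 gene IDs and 99.8% of counts.

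Groups were compared over all genes with edgeR 4.0.16 (R 4.3.3), by the robust quasi-likelihood F test after TMM scaling and filterByExpr, at a Benjamini-Hochberg adjusted p under 0.05. CPM values are counts scaled with TMM factors, and CPM per kb divides by gene length. Standard errors and intervals derive from the log2 fold change, the F statistic and its degrees of freedom. No adjustment was made over the members alone, and sums over members were not tested. Alternatives were other scalings, DESeq2 1.42.0, limma-voom 3.58.1, other filters, each sample left out and a replicate block. Code for the edgeR fit was first tested on simulated data. Shared sequence was counted as exact 50-base words of the GENCODE transcripts on both strands.

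Members and lists were chosen with earlier results of these data known. Every tested member was named, as were genes among the 4 with the smallest p of each list of nuclear-encoded genes, and annotated nuclear copies with at least 100 reads in all or in the same stretch as such a copy.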

Additional observations from a re-analysis of the deposited data

Results flagged for a closer look

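In 22 sets of the 4 Fpr2KO values, covering the CPM of each tested member and summed shares, 3 had a library far from the rest by Dixon's test, where chance gives about 1 in 20. For mt-Rnr2 it was Fpr2KO replicate 1, at 1154 CPM against 762 to 808 in the others. For mt-Nd6 it was Fpr2KO replicate 2, at 17.9 CPM against 27.0 to 28.1. For the share of mitochondrial mRNAs it was also Fpr2KO replicate 2, at 2.94% of all counts against 3.02% to 3.03%. In the same 4 libraries the acinar markers, haemoglobin, the erythroid markers and the cell cycle genes were all highest in replicate 1. Haemoglobin, the erythroid markers and the cell cycle genes were lowest in replicate 2. Whether these bear on the 3 values was not tested.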

How the results depend on the processing

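The count of called mitochondrially encoded genes was 0 in edgeR and in each of 20 alternatives, as was that of nuclear-encoded mitochondrial genes. The median of the mitochondrial mRNAs stayed below 0 in all of them, and was -0.13 over the tested mRNAs with under 10% of words shared (mt-Nd1, mt-Nd2, mt-Nd5, mt-Nd6 and mt-Cytb, with mt-Atp8 left out because its chromosome 1 counterpart has no annotated transcript). Over all genes, 6 were called, against 57 with DESeq2, 21 without a filter on low counts, 12 with haemoglobin as covariate, 2 with the replicate block and from 5 to 15 with single libraries left out (10 without WT replicate 1, 15 without WT replicate 3). The replicate block changed no call among the members. Samples of the same number did not deviate together (correlations 0.08, -0.43 and -0.07), so the numbers were not taken as pairs. The log2 ratio of the mitochondrial share was -0.23 against mitochondrial ribosomal protein genes. Among single members 17 of their alternative values changed sign, none of them called. With library totals alone, mt-Rnr2 was at 0.031 and mt-Co3 at 0.023, and with the replicate block mt-Nd3 at -0.11. Left-out libraries turned mt-Rnr2 (from -0.20 to 0.10), mt-Co3 (-0.19 to 0.052), mt-Nd3 (-0.11 to 0.27), mt-Nd6 (-0.10 to 0.19), mt-Tw (-0.10 to 0.20) and mt-Tp (-0.74 to 0.33). Without Fpr2KO replicates 1 and 2, mt-Atp8 was at 0.0066 and mt-Co3 at 0.035. With haemoglobin as covariate mt-Rnr2 was at 0.14, and with the chromosome 1 copy added mt-Nd3 was at -0.21. Unless stated, the cause of a change was not tested. Depth limits mt-Atp8, mt-Nd3, mt-Nd4l and the tRNAs, with at most 53 reads of each per library.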

Other observations

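Outside chromosome 1, other annotated copies of mitochondrial sequence also held reads. On chromosome 2, Gm13340, which matches parts of mt-Co1, had 290 to 449 reads in WT and 338 to 613 in Fpr2KO (log2 fold change 0.00, SE 0.20), and Gm13341, which matches parts of mt-Co2, had 145 to 182 and 124 to 221 (-0.22, SE 0.20). On chromosome 13, Gm4076, which matches 4.11% of the 50-base words of mt-Nd5, had 15, 13 and 13 reads in WT and 7, 8, 9 and 12 in Fpr2KO. Its CPM did not overlap between the groups (-0.81, SE 0.34, edgeR adjusted p = 0.982), and it was chosen after its values were seen.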
